A study of Mus musculus with 7 samples.

Results

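The genes described here are 35 mouse genes of the p53 pathway and the DNA damage response, a list set by gene name: the p53 family members Trp53 and Trp73, 6 genes that regulate p53, and 27 genes known as targets or effectors of growth arrest, cell death, metabolism and DNA repair. All 35 were measured, among 25347 genes tested. They were followed in ILC2s, the innate lymphoid cells that secrete type 2 cytokines although they lack antigen receptors, from mice with and without the transcriptional repressor Gfi1. The knockout cells came from Gfi1GFP/GFP mice, in which a GFP cassette in the Gfi1 locus abolishes the function of the gene and reports the activity of its promoter, and each of the 3 knockout samples pooled 6 mice. The wild-type cells came from Gfi1+/+ mice, and each of the 4 wild-type samples pooled 3 mice. Both groups received IL-25, a cytokine that expands ILC2s, on each of 4 days. On day 5 the cells were sorted from mesenteric lymph nodes as Lin-/Sca-1+/ICOS+/CD127+/c-Kit+ and then cultured for 6 days with IL-7 at 10 ng/ml and IL-2 and IL-25 at 50 ng/ml each, so the measurements describe cultured, cytokine-stimulated cells. The labels name no Cre or cell type that would limit the allele to ILC2s, and they give neither age, sex nor strain.

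Each sample was labelled with Cy5 (red) and hybridised on its own 2-colour array against a commercial mouse reference RNA in Cy3 (green). Values are log2 ratios of sample to reference, except where a sentence names the sample channel, and differences are knockout minus wild type throughout. A gene was called when its limma p-value, adjusted over all 25347 genes, was under 0.05, which holds for 7.53% of them (3.29% higher and 4.24% lower in the knockout). In these bulk measurements, fewer cells of a type and less RNA per cell cannot be told apart. The arrays lay on 3 slides: slide 1 held knockout 1 and wild type 4, slide 2 held knockout 2, knockout 3 and wild type 1, and slide 3 held wild type 2 and 3 alone.

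p53 is a transcription factor that cells keep at a low level through the ubiquitin ligase Mdm2 and its relative Mdm4, and that is stabilised when kinases sense damaged DNA or other stress. It then switches on genes that halt the cell cycle, repair DNA, change metabolism or start cell death, and Mdm2 itself, which closes a feedback loop. Much of the control of p53 is on the protein, which an array of transcripts does not measure. In lymphocytes the pathway is known for removing cells with damaged DNA or failed receptor rearrangement, and Gfi1 has been linked to it in other blood cells.

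The sequences bound by p53 are pairs of a short element, the p53 half-site. Windows from 250 bases before to 50 bases after a transcription start were taken from RefSeq (build GRCm38.p6) and matched 29 of the 35 genes, with 38 windows in all. A half-site occurred in 14 of the 38 windows (36.8%), which belonged to 13 genes, and in 8.36% of the 32841 windows of all genes. Many of the genes are on the list as known p53 targets, so a higher share can come with the choice of list. The windows of Aen overlap and hold the same half-site. None of the 38 windows held a pair of half-sites separated by at most 13 bases, as 0.0731% of all windows did. The core element of Gfi1, TAAATC, occurred in 5 of the 38 windows (13.2%) and in 9.19% of all windows. Of the called genes with a window, 3 of 7 held a half-site, and of the genes not called, 10 of 22. Both strands were searched, and a match describes letters in the window, not binding. Sequence outside the windows was not searched, so a window without a match does not mean a gene without one. Windows of 6 genes are shown with p53 half-sites in capitals: Aen, Ei24 and Rps27l, the called genes that hold one, Mdm2, the feedback gene, which holds one and was not called, and Plk2 and Sesn3, the called genes with the lowest adjusted p, which hold none. They are Aen (chr7:78895677-78895976, plus strand, half-site starting at base 11 of the transcript), Ei24 (chr9:36797285-36797584, minus strand, half-site starting at position -10 from the start), Rps27l (chr9:66946163-66946462, plus strand, 2 half-sites, the window that holds them), Mdm2 (chr10:117710709-117711008, minus strand, half-site starting at position -186), Plk2 (chr13:110394794-110395093, plus strand) and Sesn3 (chr9:14276051-14276350, plus strand).
Aen: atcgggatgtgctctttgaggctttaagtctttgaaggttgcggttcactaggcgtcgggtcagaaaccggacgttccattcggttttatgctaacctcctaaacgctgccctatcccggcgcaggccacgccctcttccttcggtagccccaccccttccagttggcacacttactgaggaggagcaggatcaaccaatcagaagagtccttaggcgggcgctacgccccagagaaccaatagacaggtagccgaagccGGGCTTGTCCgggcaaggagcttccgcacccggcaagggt
Ei24: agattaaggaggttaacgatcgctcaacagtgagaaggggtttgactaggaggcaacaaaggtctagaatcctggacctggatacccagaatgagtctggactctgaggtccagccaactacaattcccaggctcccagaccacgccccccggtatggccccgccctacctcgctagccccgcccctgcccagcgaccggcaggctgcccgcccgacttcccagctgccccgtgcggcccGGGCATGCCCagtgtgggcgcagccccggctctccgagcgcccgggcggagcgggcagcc
Rps27l: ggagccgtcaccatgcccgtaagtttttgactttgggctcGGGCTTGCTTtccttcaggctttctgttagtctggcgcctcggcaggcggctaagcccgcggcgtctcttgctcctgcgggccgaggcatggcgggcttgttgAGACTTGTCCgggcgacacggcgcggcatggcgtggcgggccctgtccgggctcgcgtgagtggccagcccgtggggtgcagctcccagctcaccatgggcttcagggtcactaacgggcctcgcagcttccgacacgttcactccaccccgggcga
Mdm2: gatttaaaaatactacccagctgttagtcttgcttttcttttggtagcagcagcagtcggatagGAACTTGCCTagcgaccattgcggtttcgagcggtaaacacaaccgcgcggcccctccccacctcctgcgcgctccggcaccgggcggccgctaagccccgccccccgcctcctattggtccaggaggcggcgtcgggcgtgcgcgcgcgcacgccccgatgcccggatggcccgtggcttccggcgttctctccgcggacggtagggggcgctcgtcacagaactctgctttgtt
Plk2: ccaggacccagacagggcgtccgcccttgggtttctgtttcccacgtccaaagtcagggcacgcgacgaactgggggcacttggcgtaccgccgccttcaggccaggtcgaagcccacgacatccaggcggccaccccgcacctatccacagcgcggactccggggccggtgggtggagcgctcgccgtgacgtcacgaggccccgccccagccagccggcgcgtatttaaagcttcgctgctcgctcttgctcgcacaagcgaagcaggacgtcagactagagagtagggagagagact
Sesn3: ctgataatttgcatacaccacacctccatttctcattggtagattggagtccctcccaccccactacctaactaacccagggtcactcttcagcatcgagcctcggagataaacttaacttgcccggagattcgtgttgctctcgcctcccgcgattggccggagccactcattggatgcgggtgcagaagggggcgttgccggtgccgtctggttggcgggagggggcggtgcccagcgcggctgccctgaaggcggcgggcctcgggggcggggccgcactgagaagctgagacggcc

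By log ratio, 9 of the 35 genes were called higher in knockout ILC2s and none lower, against 3.29% and 4.24% of all genes. The list was chosen with earlier results of these data known, so the shares of all genes beside it are a description, not a test. The 9 were Plk2, Sesn3, Trp73, Aen, Rps27l, Perp, Zmat3, Phlda3 and Ei24, with fold changes between 1.43 and 2.60. Of these, Rps27l was not called in the sample channel, where its difference was 0.11. The difference was positive in 28 of the 35, as it was in 46.0% of all genes tested, and the median difference of the 35 was 0.30, against -0.01 for all genes. The 3 knockout arrays lay above the 4 wild-type arrays without overlap in 13 of the 35 and below them in 1, against 8.08% and 10.2% of all genes. A further 6 genes had an adjusted p between 0.05 and 0.1, 5 of them with a positive difference. At an unadjusted limma p under 0.05 there were 19 genes higher and 2 lower (Plk3 and Sesn1), against 9.01% and 10.5% of all genes. By role, the calls comprised 5 of 7 genes of cell death and autophagy, 2 of 9 of growth arrest and checkpoint, 1 of 2 of the p53 family and 1 of 6 of metabolism and oxidative stress. In limma none of the 6 regulators of p53 and none of the 5 DNA repair genes was called, although Ppm1d, Ccng1 and Ddb2 had an unadjusted p under 0.05.

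**Figure D1:**
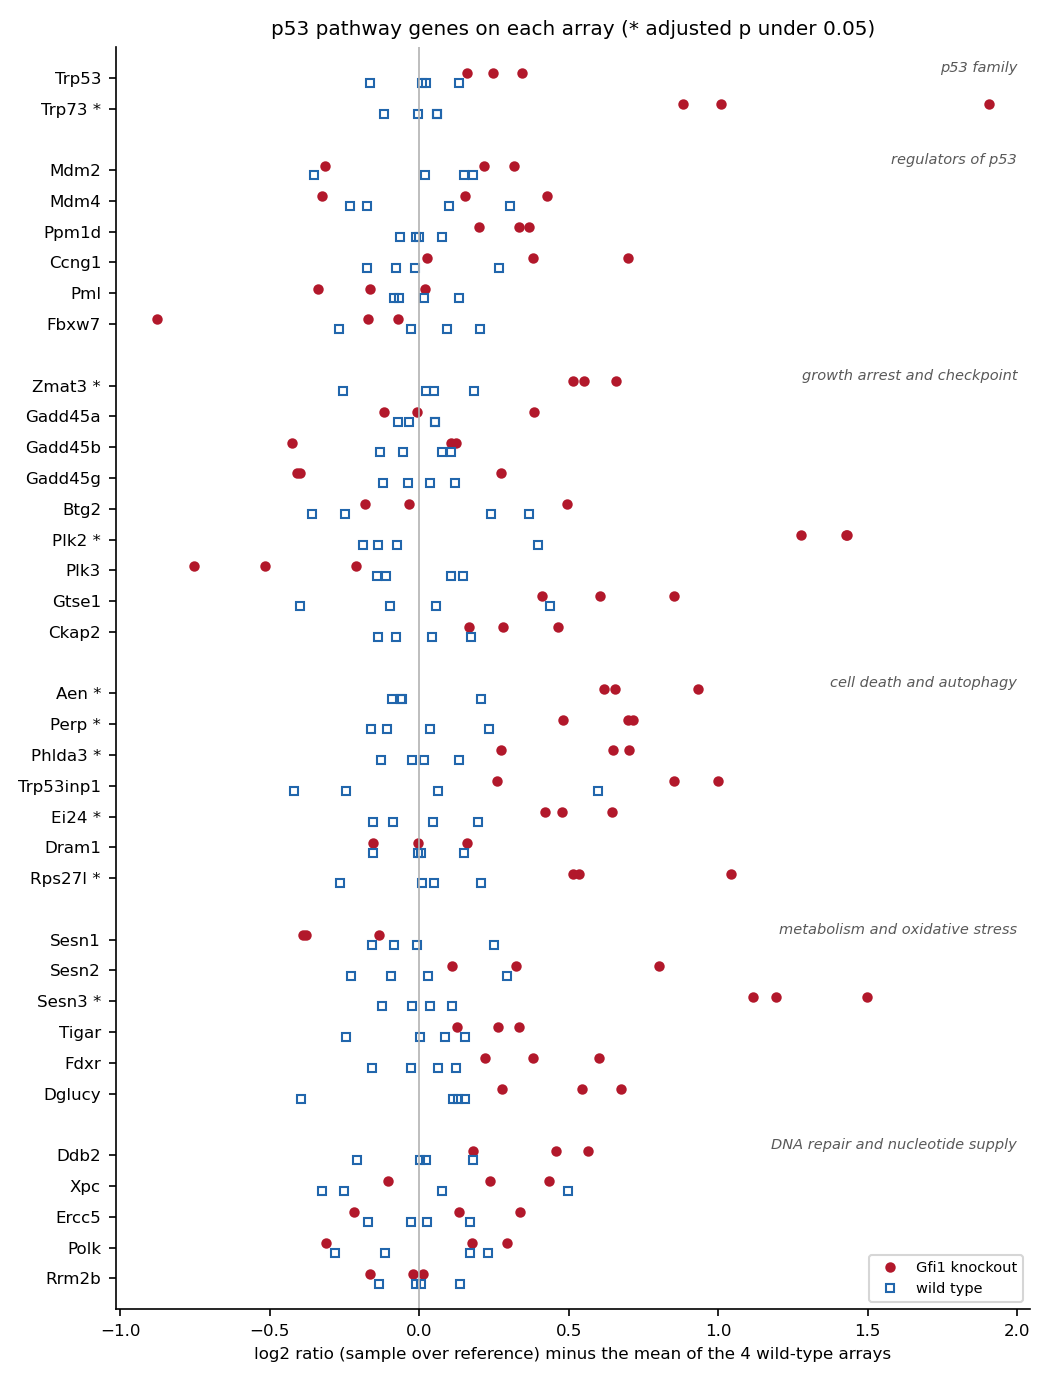
Log2 ratio of each of the 35 genes on each array, minus the mean of the 4 wild-type arrays, with genes grouped by role (knockout, red circles, 3 arrays; wild type, blue squares, 4 arrays). Asterisks mark the 9 genes with a limma adjusted p under 0.05, all with red points to the right of the blue ones, while Mdm2, Dram1 and Rrm2b show mixed points.

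The count depended on how slide entered the fit. With slide as a fixed block, 2 of the 35 genes were called, both higher (Plk2 and Sesn3), against 1.89% of all genes in either direction and 0.919% higher, and the median difference stayed at 0.29. With slide as a random block (correlation -0.135) 11 of the 35 were called, all higher, against 3.71% of all genes. Within slide 1 the median difference of the 35 was 0.33 and within slide 2 it was 0.29. All 9 called genes were higher in the knockout within both slides, a sign that the lack of overlap between the groups already fixes. Without knockout array 3 and wild-type array 4 together, 6 genes were called, all higher, against 1.91% of all genes. Among the 34 genes well above background on all 7 arrays, which leaves out Perp, 8 were called in a fit over such genes, all higher, against 3.42% of all genes in that fit.

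Among the p53 family, Trp53, which encodes p53, was not called. Its log2 ratio was 2.00, 2.09 and 2.18 on knockout arrays 1, 2 and 3, against 1.85, 1.97, 1.67 and 1.86 on wild-type arrays 1 to 4. The knockout arrays were all above the wild-type arrays, by 0.02 at the closest pair, and the difference of 0.25 ± 0.09 (SE) had an adjusted p of 0.168. Trp73, which encodes the homologue p73, rose. Its shown probe read 4.35, 4.48 and 5.37 on the knockout arrays, against 3.53, 3.35, 3.52 and 3.46 on the wild-type arrays. All knockout arrays were higher, knockout 3 most of all, while the wild-type arrays lay close together. The difference was 1.27 ± 0.21 (SE), or 2.41-fold, with an adjusted p of 0.0068, and it was 0.95 without knockout array 3, where the call was kept. The other probes of Trp73 showed less: their differences were 0.14 and 0.38, with p-values adjusted over all tested probes of 0.526 and 0.223, and their groups overlapped. With slide as a block the Trp73 difference was 1.18 and was not called (adjusted p = 0.0941).

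Of the genes that hold p53 in check, none was called in the log ratio. Mdm2 had log2 ratios of 0.91, 0.81 and 0.27 on the knockout arrays, against 0.74, 0.61, 0.77 and 0.24 on the wild-type arrays. The groups overlapped throughout, with a low array in each (knockout 3 and wild type 4), and the difference was 0.07 ± 0.17 (SE, adjusted p = 0.88). Within slide 1 the Mdm2 difference was 0.67 and within slide 2 it was -0.20. Mdm4, the relative of Mdm2 that blocks p53 on its target genes, differed by 0.09 (adjusted p = 0.868), and its second probe by 0.15.

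Ppm1d, the phosphatase Wip1, which turns off p53 and the damage kinases, had the smallest adjusted p of the regulators. Its log2 ratios were 0.83, 0.86 and 0.70 in knockout samples, against 0.49, 0.43, 0.57 and 0.49 in wild-type samples. The groups did not overlap and were tight, and the difference of 0.30 ± 0.08 (SE) just missed the threshold, with an adjusted p of 0.0535. In the sample channel alone the Ppm1d difference was 0.37 and was called (adjusted p = 0.0205). Ccng1, a cyclin that brings a phosphatase to Mdm2, differed by 0.37 (adjusted p = 0.245) with overlapping groups. Pml, the scaffold of nuclear bodies, and Fbxw7, a ubiquitin ligase subunit that targets cyclin E and Myc, differed by -0.16 and -0.37 (adjusted p = 0.462 and 0.337), and a second probe of Fbxw7 stood at -0.07.

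In the growth arrest and checkpoint group, Plk2 and Zmat3 rose. Plk2, a polo-like kinase of centriole duplication and a known p53 target, read -4.01, -3.86 and -3.86 on the knockout arrays, against -4.89, -5.47, -5.43 and -5.36 on the wild-type arrays. Every array lay far below the reference RNA, and the highest wild-type array, wild type 1, was still 0.88 below the lowest knockout array. The difference was 1.38 ± 0.14 (SE), or 2.60-fold (adjusted p = 0.000525), and it was 1.35 within slide 1 and 1.03 within slide 2. The fit that included slide gave 1.17 (adjusted p = 0.0058). That was the lowest Plk2 difference over 25 alternatives, and the highest was 1.85, so its size depended on the processing. Zmat3, an RNA-binding zinc finger protein, read 1.03, 0.99 and 1.13 in knockout samples, against 0.52, 0.22, 0.50 and 0.66 in wild-type samples. The knockout values were tightly grouped above all wild-type values, a difference of 0.57 ± 0.11 (SE, adjusted p = 0.0121), which a slide block brought to 0.46 (adjusted p = 0.17).

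The related kinase Plk3 differed the other way. Its log2 ratios were 0.65, 0.95 and 0.41 on the knockout arrays, against 1.27, 1.31, 1.05 and 1.02 on the wild-type arrays. It was the one gene of the 35 whose knockout arrays all lay below the wild-type arrays, by -0.49 ± 0.13 (SE), and it missed the threshold (adjusted p = 0.0598). Without knockout array 2 the Plk3 difference was -0.63 and was called (adjusted p = 0.026).

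The 3 Gadd45 genes, small stress proteins that restrain the cell cycle and act on kinases, were not called. Gadd45a, the member with the best known p53 site, differed by 0.09 (adjusted p = 0.777), Gadd45b by -0.06 (adjusted p = 0.866) and Gadd45g by -0.18 (adjusted p = 0.635). Knockout array 3 stood apart from the other knockout arrays in all of them: it was the highest for Gadd45a and Gadd45g, at -2.85 and 1.46, and the lowest for Gadd45b, at 1.39. Leaving it out gave Gadd45g a difference of -0.40 that was called (adjusted p = 0.0414). Btg2, an antiproliferative partner of the mRNA deadenylase complex, differed by 0.09 (adjusted p = 0.874), by -0.42 within slide 1 and by 0.59 within slide 2.

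Gtse1 and Ckap2, microtubule-binding proteins of dividing cells, of which Gtse1 also restrains p53 in G2, were not called. Gtse1 read 0.49, 0.73 and 0.29 on the knockout arrays, against 0.32, -0.06, -0.52 and -0.22 on the wild-type arrays. Only wild type 1 reached the knockout range, and the difference was 0.62 ± 0.18 (SE, adjusted p = 0.0788). It was 0.70 within slide 1 and 0.19 within slide 2. Ckap2 differed by 0.30 (adjusted p = 0.136), by 0.54 within slide 1 and 0.05 within slide 2.

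Genes of cell death and autophagy held most of the calls. Aen, an exonuclease that promotes apoptosis, read 0.55, 0.59 and 0.87 on the knockout arrays, against 0.14, -0.13, -0.16 and -0.12 on the wild-type arrays. The groups were clearly apart, with wild type 1 nearest to the knockout arrays, and the difference was 0.74 ± 0.11 (SE), or 1.67-fold (adjusted p = 0.00405). A second Aen probe gave 0.69 (adjusted p over probes 0.00435). The reference channel of Aen was also lower on the knockout arrays, by -0.26, so that the sample channel alone gave 0.47, or 1.39-fold (adjusted p = 0.0211). With slide in the fit the Aen difference was 0.63 and was not called (adjusted p = 0.0573).

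Perp, a membrane protein of desmosomes that promotes cell death, read -5.38, -5.14 and -5.16 on the knockout arrays, against -5.82, -5.62, -6.02 and -5.97 on the wild-type arrays. The knockout arrays were all higher, but Perp was well above background on all 3 knockout arrays and on only 2 of the 4 wild-type arrays. The wild-type arrays alone would not have passed it into the test, which asked for 3 such arrays of the 7, and its wild-type level is only partly measured. The fitted difference of 0.63 ± 0.11 (SE, adjusted p = 0.00956) is therefore uncertain in size: it was 0.33 with another handling of flagged spots, where it was not called (adjusted p = 0.542), 1.03 with a normexp offset of 10 (adjusted p = 0.00428) and 1.72 with the scanner's own ratio and with the series value table (adjusted p = 0.0348 and 0.0346). Phlda3, which competes with the survival kinase Akt for membrane lipids, read -1.44, -1.49 and -1.87 on the knockout arrays, against -2.01, -2.13, -2.17 and -2.27 on the wild-type arrays. The groups did not overlap, although knockout 3 lay nearer to wild type 1 than to the other knockout arrays, and the difference was 0.54 ± 0.12 (SE, adjusted p = 0.0226). Leaving out any 1 of 5 arrays (knockout 1 or 2, or wild type 2, 3 or 4) ended the Phlda3 call, with an adjusted p of at most 0.0859.

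Ei24, an endoplasmic reticulum protein needed for autophagy, read 1.23, 1.0 and 1.06 in knockout samples, against 0.63, 0.43, 0.78 and 0.49 in wild-type samples. All knockout values were above all wild-type values, by 0.51 ± 0.10 (SE, adjusted p = 0.0172), and leaving out knockout 1 or wild type 4 gave an adjusted p of 0.0506 and 0.0563. Rps27l, a ribosomal protein paralogue induced by p53, read 0.10, 0.63 and 0.12 on the knockout arrays, against -0.21, -0.40, -0.68 and -0.36 on the wild-type arrays. The knockout arrays were higher throughout, by 0.70 ± 0.15 (SE, adjusted p = 0.0238), but the difference lay mostly in the reference channel, which was lower on the knockout arrays by -0.59. The sample channel of Rps27l differed by 0.11 (adjusted p = 0.743) with overlapping groups. The Rps27l call was also lost without knockout 2 or wild type 2, 3 or 4, where the adjusted p reached at most 0.064. Both channels of an array carry the same spot, and what moved the reference signal was not tested.

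Trp53inp1, a stress protein of nuclear bodies and autophagosomes, had the largest difference of the 26 genes not called. Its shown probe read 1.38, 0.79 and 1.53 on the knockout arrays, against 0.29, 0.11, 1.13 and 0.60 on the wild-type arrays. The groups overlapped through wild type 3, and the difference of 0.70 ± 0.25 (SE) had an adjusted p of 0.142. A second probe of Trp53inp1 differed by 0.00 (adjusted p over probes 0.999). Dram1, a lysosomal membrane protein of autophagy, also differed by 0.00 (adjusted p = 0.998).

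**Figure D2:**
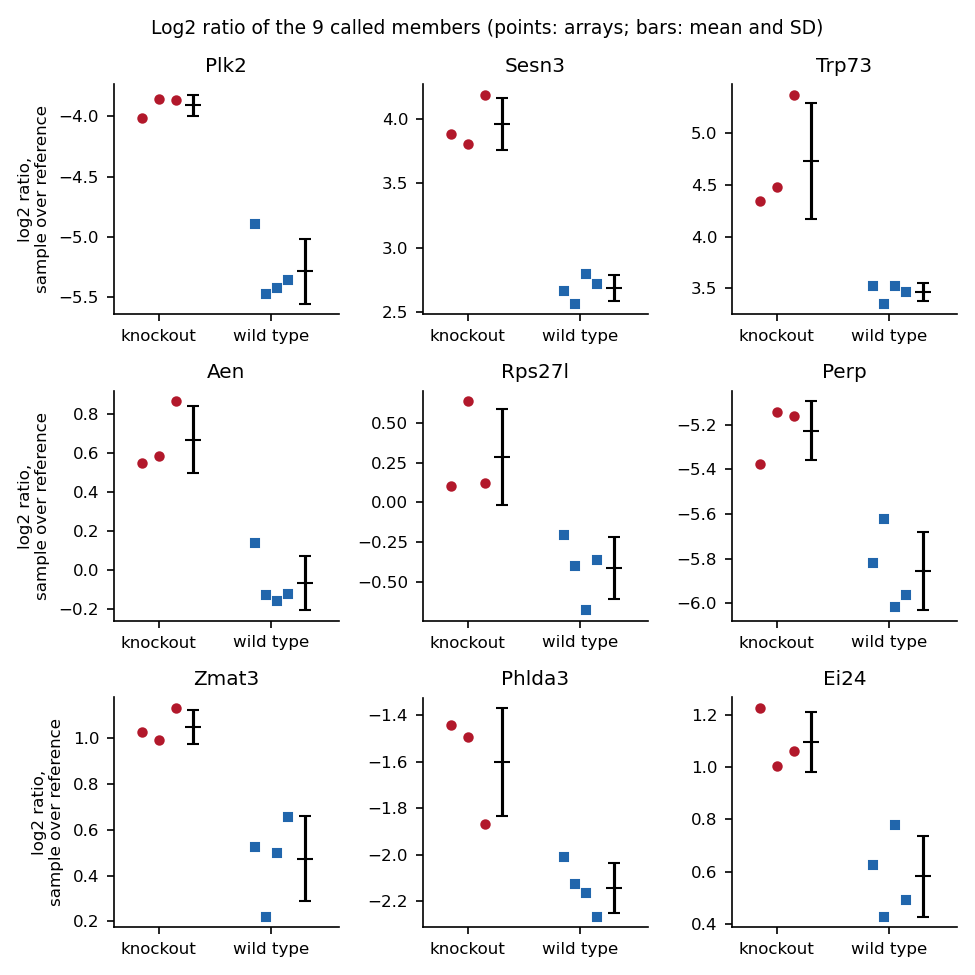
Log2 ratio of sample over reference for the 9 called genes on each array (red circles, 3 knockout arrays; blue squares, 4 wild-type arrays), with black bars for mean and SD and a separate axis range in each panel. The knockout points lie above the wild-type points in every panel, and Plk2, Sesn3 and Trp73 have the widest gaps, of 1.38, 1.27 and 1.27 between the means.

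Among genes of metabolism and oxidative stress, Sesn3 was called and the other sestrins were not. Sestrins restrain the growth kinase complex mTORC1 and limit oxidative damage, and Sesn3 is also known as a target of FOXO factors. Sesn3 read 3.88, 3.80 and 4.19 on the knockout arrays, against 2.67, 2.56, 2.80 and 2.72 on the wild-type arrays. The groups were separated by a gap of 1.01, wider than the range within either group. The difference was 1.27 ± 0.11 (SE), or 2.41-fold (adjusted p = 0.000209), 1.16 on slide 1 and 1.33 on slide 2. Fitted with slide as a block it was 1.26 (adjusted p = 0.0118). Sesn1 read 2.61, 2.62 and 2.86 on the knockout arrays, against 2.91, 2.84, 3.24 and 2.99 on the wild-type arrays. It overlapped at 1 array of each group and was not called, at -0.30 ± 0.11 (SE, adjusted p = 0.18), and in the sample channel its difference was -0.57 (adjusted p = 0.071). Sesn2, which also senses leucine and is known as a target of ATF4, differed by 0.41 (adjusted p = 0.224) with overlapping groups.

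Fdxr, a mitochondrial reductase that feeds electrons to ferredoxin, and Dglucy, a mitochondrial D-glutamate cyclase, came near the threshold. Fdxr read -1.15, -0.99 and -0.77 on the knockout arrays, against -1.31, -1.25, -1.53 and -1.40 on the wild-type arrays. The groups did not overlap, and the difference was 0.40 ± 0.11 (SE, adjusted p = 0.0607). Dglucy differed by 0.50 ± 0.15 (SE, adjusted p = 0.0884), also without overlap, and its second probe by 0.36 with overlap. Tigar, a phosphatase that lowers glycolytic flux, differed by 0.24 (adjusted p = 0.261) and by 0.29 on its second probe.

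No gene of DNA repair and nucleotide supply was called. Ddb2, which recognises ultraviolet damage in chromatin, had log2 ratios of -0.56, -0.18 and -0.29 on the knockout arrays, against -0.74, -0.95, -0.72 and -0.56 on the wild-type arrays. Knockout 1 and wild type 4, the pair that shared slide 1, met at the same value, and the difference was 0.40 ± 0.12 (SE, adjusted p = 0.084). The other damage recognition gene, Xpc, differed by 0.19 (adjusted p = 0.698). Ercc5, the nuclease XPG, differed by 0.08 (adjusted p = 0.811), Polk, a translesion polymerase, by 0.05 (adjusted p = 0.917) and Rrm2b, the p53-induced subunit of ribonucleotide reductase, by -0.06 (adjusted p = 0.807). For genes that missed the threshold, these values do not show that the groups were alike. Leaving out 1 array brought some of them past it: Fdxr and Ddb2 without knockout 1 (adjusted p = 0.0347 and 0.0355), Ppm1d without knockout 3 (0.0482), Gtse1 without wild type 1 (0.0227) and Trp53inp1 without wild type 3 (0.0367).

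**Figure D3:**
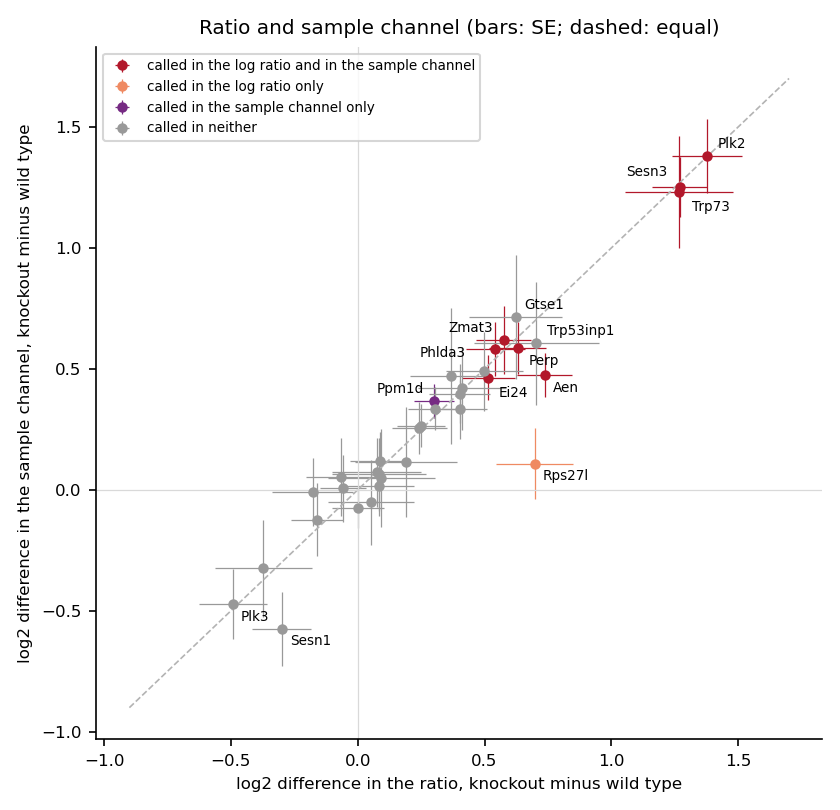
Differences (knockout minus wild type, log2) of the 35 genes in the ratio (horizontal axis) and in the sample channel alone (vertical axis), with SE bars and a dashed line of equality. Most genes lie on the line, 8 were called on both scales, Rps27l in the ratio only (0.70, against 0.11 in the sample channel) and Ppm1d in the sample channel only.

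In the sample channel alone, taken after loess and a further Aquantile step between arrays, 9 of the 35 genes were called, all higher. Of all genes, 6.55% were called in either direction, 2.92% higher and 3.63% lower. The count among the 35 fell to 3 without knockout array 2 (2 higher, 1 lower) or without wild-type array 2 (all higher). It was 4 without wild-type array 4 and 2 with slide as a fixed block. The share of all genes called in these sample-channel fits is not given here. A fall particular to the 35 genes therefore cannot be told from a general one. The 8 genes called on both scales were Plk2, Sesn3, Trp73, Aen, Perp, Zmat3, Phlda3 and Ei24. Relative to the reference RNA, 17 of the 35 genes were above it on all 7 arrays and 12 were below it on all 7. All but Perp were well above background on every array.

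**Figure D4:**
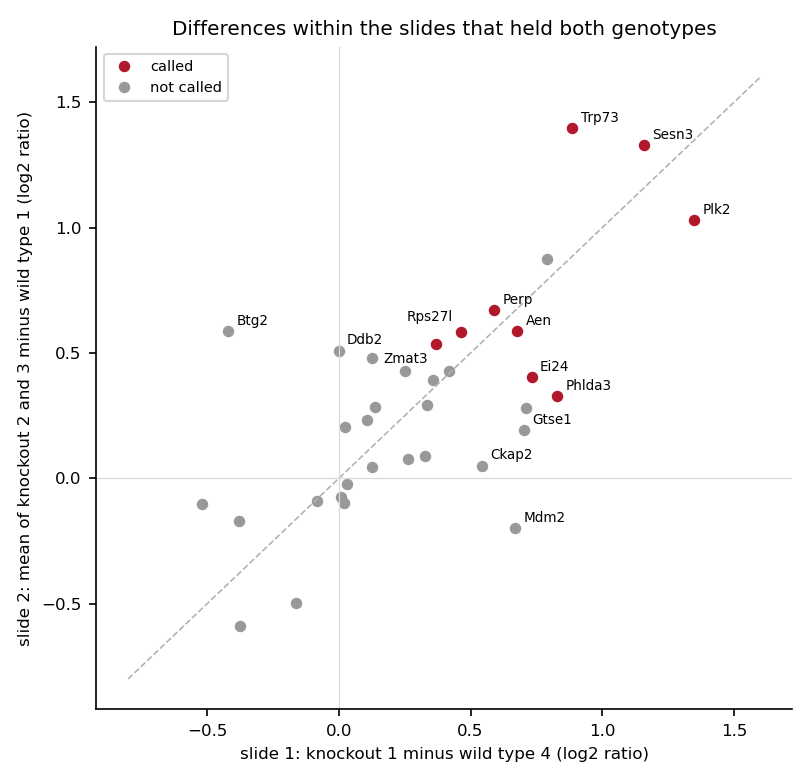
Differences of the 35 genes within the 2 slides that held both genotypes: knockout 1 minus wild type 4 (slide 1, horizontal axis) and the mean of knockout 2 and 3 minus wild type 1 (slide 2, vertical axis), in log2 ratio, with called genes in red and a dashed line of equality. The 9 called genes lie in the upper right, and Mdm2 (0.67 and -0.20) and Btg2 (-0.42 and 0.59) differ most between the slides.

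Other genes around the pathway were read from 13 lists, which together had 37 calls among 266 tested genes, 18 higher and 19 lower. Of 25 other p53 target genes, 3 rose and 1 fell, and the median difference was -0.05. At an unadjusted limma p under 0.05, 6 of the 25 were higher and 7 lower, against 9.01% and 10.5% of all genes. Pidd1, a death-domain protein that activates caspase-2, rose by 0.46 (adjusted p = 0.0119), Bid, which links death receptors to mitochondria, by 0.41 (adjusted p = 0.0339) and Pmaip1, the BH3-only protein Noxa, by 0.54 (adjusted p = 0.049). The cytokine gene Lif fell by 0.49 (adjusted p = 0.0438). Genes often used as a readout of p53 were not called: the CDK inhibitor Cdkn1a (p21) differed by 0.35 (adjusted p = 0.306), the pore-forming Bax by 0.24 (adjusted p = 0.172), Bbc3, the BH3-only protein Puma, by -0.08 (adjusted p = 0.812) and the death receptor Fas by -0.69 (adjusted p = 0.101). These 4 were chosen after their values were seen. Of 20 other p53 regulators and cofactors, 1 fell and none rose, with a median of -0.09. It was Ppp1r13l, the p53 inhibitor iASPP, at -0.49 (adjusted p = 0.0179).

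Upstream of p53, 1 of 19 sensors and kinases of the damage response rose and 1 fell, with a median of 0.01. Topbp1, an activator of the kinase ATR, rose by 0.49 (adjusted p = 0.0451), with 0.86 within slide 1 and 0.16 within slide 2. Rad50, a subunit of the complex that binds broken ends, fell by 0.48 (adjusted p = 0.0173). None of 22 nucleotide excision repair genes was called by limma, with a median of 0.18 and 6 genes higher at an unadjusted p under 0.05. Ercc6, a chromatin remodeller of transcription-coupled repair, and Rpa2, which coats single-stranded DNA, came nearest at 0.44 and 0.64 (adjusted p = 0.0525 and 0.0609).

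Among the other repair lists, homologous recombination and crosslink repair had 3 of 25 genes higher, none lower and a median of 0.29. Among them were the helicase Brip1 at 0.58 (adjusted p = 0.0167) and the scaffold protein Palb2 at 0.55 (adjusted p = 0.0403). At an unadjusted limma p under 0.05, 11 of these 25 genes were higher and 1 lower, against 9.01% and 10.5% of all genes. Of 20 base excision and mismatch repair genes 3 rose and none fell, namely Apex1, the abasic site nuclease, at 0.81, the mismatch sensor subunit Msh6 at 0.40 and the glycosylase Neil3 at 0.42, and the list median was -0.01. End joining had Parp1 higher, at 0.51, and the polymerase Polm lower, at -0.75 (adjusted p = 0.0043), of 14, with a median of 0.01. Of 12 translesion genes Poli fell by 0.63 (adjusted p = 0.00826) and none rose, with a median of 0.08.

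Cell cycle genes had positive medians. Of 21 S phase genes 1 rose (Rrm1, the large ribonucleotide reductase subunit, at 0.60) and none fell, with a median of 0.43. Of 25 G2/M genes 2 rose (the kinesins Kif23 and Kif20a, at 0.62 and 0.56) and none fell, with a median of 0.27. At an unadjusted p under 0.05, 11 of the S phase and 10 of the G2/M genes were higher and none was lower, against 9.01% of all genes higher and 10.5% lower. The medians were 0.52 and 0.35 within slide 1 and 0.09 and 0.03 within slide 2. Gtse1 and Ckap2 likewise had the larger difference within slide 1. What part cell cycling had in the values of the 35 genes was not tested.

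Genes of other stress programmes that share targets with p53 were read beside them. Of 19 genes of the ATF4 amino acid response 9 fell and none rose, with a median of -0.61. They included the pseudokinase Trib3 at -2.21, the glutathione-degrading Chac1 at -2.14, the hormone gene Stc2 at -0.91 and the amino acid transporter subunit Slc3a2 at -0.61. Immediate-early genes had 2 higher and 4 lower of 24, with a median of -0.03, among them Ier3 at -1.27, Nr4a1 at -0.89, Fosl2 at -0.72 and the phosphatase gene Dusp2 at 1.18. FOXO factors and targets, without Sesn3, which is counted among the 35, had 2 higher and 1 lower of 20, with a median of -0.05: the lymph node receptors Ccr7 and S1pr1 rose by 2.59 and 1.88, and the CDK inhibitor Cdkn1b fell by 1.07 (adjusted p = 0.0472).

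**Figure D5:**
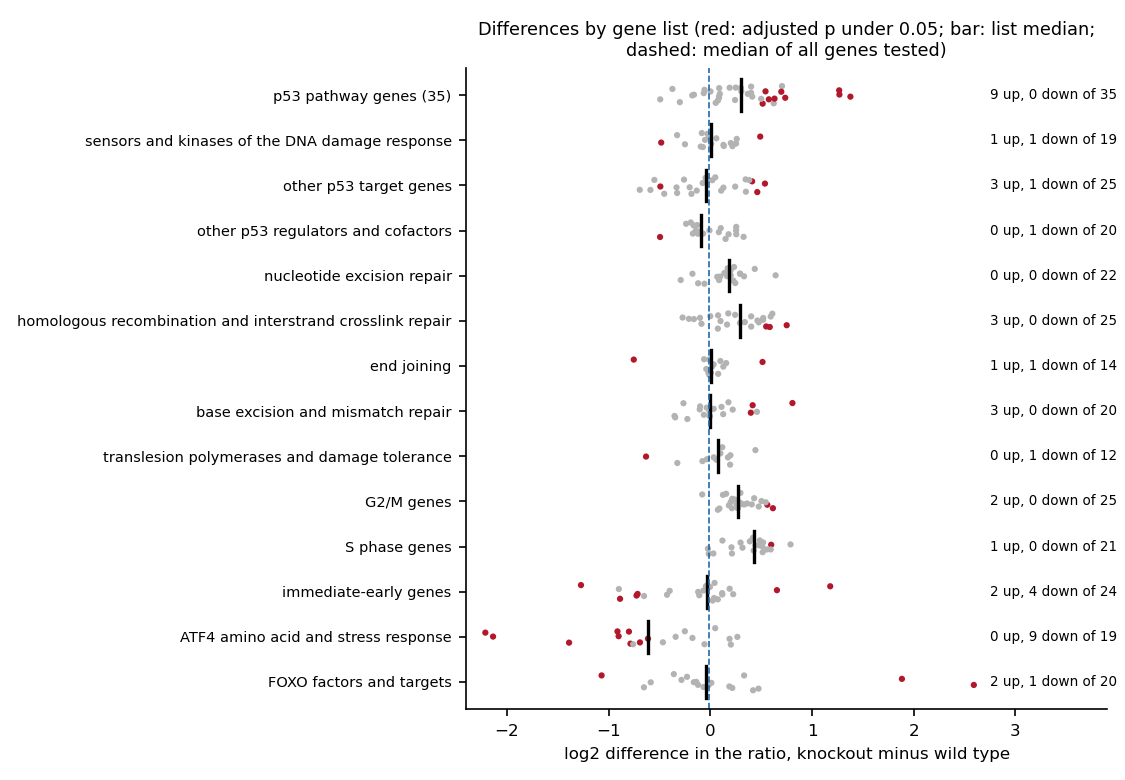
Differences (knockout minus wild type, log2 ratio) of each gene in the 35-gene list and the 13 other lists, with calls in red, other genes in grey, a black bar at the list median and a dashed line at the median of all genes (-0.01). The 35 genes have 9 calls, all to the right, the ATF4 list has 9 calls, all to the left, and the S phase list has a median of 0.43 with 1 call.

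The labelled cell type and other cells were checked by their tested markers, given as the log2 of the summed sample-channel signal. ILC2 markers summed to 19.38 to 19.74 on the knockout arrays, against 19.82 to 20.29 on the wild-type arrays, and 18 of 19 were well above background on every array. Of the 19, 2 rose (Ptgdr2 and Il17rb) and 5 fell, with Il1rl1 and Arg1 at -1.89 and -2.11. Markers of ILC3 and type 17 cells summed to 14.29 to 14.86 on the knockout arrays, against 10.01 to 10.31 on the wild-type arrays, and 5 of 7 rose, led by Il17f and Il17a at 4.45 and 5.62. Of the 7, only 4 were well above background on every array, and for a marker dim in wild type the size of the difference is uncertain. The median of these markers was 0.52 within slide 1 and 2.08 within slide 2.

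T cell markers summed to 14.31 to 14.98 on the knockout arrays, against 14.20 to 14.88 on the wild-type arrays, and 2 of 14 rose (Cd2 and Lck). B cell markers summed to 13.99 to 14.21 on the knockout arrays, against 14.13 to 14.39 on the wild-type arrays, with 1 of 10 higher (Blk). Myeloid markers summed to 15.30 to 15.48 on the knockout arrays, against 15.29 to 15.67 on the wild-type arrays, with none of 9 called by limma and 1 (Adgre1) higher at an unadjusted p under 0.05. These ranges overlap between the genotypes for all 3 cell types.

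Mast cell and basophil markers summed to 9.92 to 9.98 on the knockout arrays, against 9.94 to 10.25 on the wild-type arrays, with 2 of 5 lower (Hdc and Cpa3). NK and ILC1 markers summed to 18.12 to 18.44 on the knockout arrays, against 17.14 to 18.28 on the wild-type arrays, with none of 7 called by limma and 2 (Tbx21 and Eomes) higher at an unadjusted p under 0.05. The markers S100a8, Fcer1a, Ms4a2, Ncr1 and Nrp1 were above background on no array. The part of other cells in the values of the 35 genes was not tested.

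Gfi1 itself read 4.28 ± 0.02 (SD, n = 3) in knockout samples, against 2.02 ± 0.23 (SD, n = 4) in wild-type samples. The knockout allele leaves the promoter active. Whether the probe lies before or after the GFP cassette is not known here, so it checks no label. The share of probes with a sample signal well above background ran from 67.4% to 80.9% per array, and log ratios correlated across genes at 0.969 to 0.980 among knockout arrays, 0.979 to 0.989 among wild-type arrays and 0.942 to 0.969 between the genotypes. The number of arrays, 3 against 4, limits the precision of every value above.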

How the data were processed

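Total RNA of ILC2s was profiled on 7 Agilent 2-colour arrays, 3 knockout and 4 wild type, with Cy5 for the sample, Cy3 for a common reference and no dye swap, per the labels. The deposited scanner files hold linear intensity values for each spot. Agilent Feature Extraction wrote them, in version 11.0.1.1 per the file headers but 10.7.3.1 per the submitters' processing notes. Per the file headers, the scanner software also gave each spot a log10 ratio (red to green), background-subtracted and dye-normalized. The deposited series table holds log2 ratios: at least 99.3% of its values on each array lay within 0.001 of that ratio turned to log2, with column medians of 0.163 to 0.254.

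Median foreground and background signals, which the files hold, were used. Mean signals, which the design named for files without medians, were not. Values were corrected with normexp (offset 50) and loess, with control spots at weight 0, in limma 3.58.1 under R 4.3.3. Control spots were left out, as were the 2597 spots flagged as feature outliers or for a non-uniform local background. Background population outliers were kept. Figures were drawn with matplotlib 3.10.9. Probes were named through accessions in a RefSeq table (GRCm38.p6): of 39429 probes 26581 matched 1 gene and 12848 matched none. Probe coordinates are left out because the array was designed on build mm9. Genes well above background on at least 3 arrays, with at least 2 values per group, were tested: 30293 probes and 25347 genes, 16690 with a symbol, each through its probe with the highest mean sample signal. None of the 35 genes had a missing value. The sample channel alone was taken after loess and Aquantile. Groups were compared with lmFit and eBayes, Benjamini-Hochberg adjustment and no block. Per the labels, every sample is a separate pool of mice.

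The 35 genes and the other lists were chosen with earlier results of these data known. In the list of sensors and kinases 19 of 20 names matched a symbol. Named were all 35 genes, Gfi1, and of each other list the called genes with the 4 smallest p-values, or the 2 with the smallest where none was called; one gene so chosen is not reported here. Alternatives covered arrays left out, replicate number, slide, flags, filters, background correction, normalization, the series table, variance models, probe choice and a minimum change. The fit was tested on simulated log ratios with known changes and no slide effect, so that test does not bear on the results with slide.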

Additional observations from a re-analysis of the deposited data

Results flagged for a closer look

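In the group of 4 wild-type arrays, 1 array stood far from the other 3 for 2 of the 35 genes. For Aen, wild-type array 1 read 0.14, and its gap to the nearest array made up 0.885 of the range of the group. For Dglucy, wild-type array 2 read -1.60, with a gap of 0.929 of the range. Chance gives about 1 such array in 20 groups, so 2 of 35 is near what chance gives. The knockout group of 3 was too small for this test.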

How the results depend on the processing

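Over 25 alternatives, Plk2 and Sesn3 stayed called in all, Trp73, Zmat3 and Aen in 23 each, Ei24 in 19, Phlda3 in 15 and Rps27l in 13, and Perp in 19 of the 24 that tested it. None of the 9 called genes changed sign in any of them. Where arrays were left out, the lack of overlap between the groups already fixed that sign. Aquantile, the filters, the variance model with a trend and the minimum change kept the differences of the main fit, so no sign could turn there. The series table and the scanner's ratio hold nearly the same values. The alternatives are thus not independent checks. The median difference of the 35 genes ran from 0.23 to 0.37. Median centring in place of loess gave 1614 calls over all genes, 895 higher and 719 lower, against 833 higher and 1075 lower here, so the share of higher calls was 55.5% against 43.7%. In the counts that follow, those of the sample channel are of the 35 genes only, with no share of all genes beside them. Those of all genes and of the other lists come from the log ratio. With slide as a fixed block the calls were 478 for all genes, 2 for the 35 genes in the log ratio, 2 for them in the sample channel and 6 for the other lists. With a minimum log2 change of 0.5 they were 210, 2, 2 and 4. With knockout array 3 and wild-type array 4 both left out, all genes gave 1137, the sample channel 4 and the other lists 18. Leaving out 1 array gave 1264 to 1898 calls over all genes, 6 to 11 among the 35, 3 to 8 in the sample channel and 16 to 38 in the other lists. The counts for all genes, the sample channel and the other lists were 1264, 3 and 16 without knockout array 2 and 1268, 4 and 21 without wild-type array 4, and the last 2 were 3 and 23 without wild-type array 2. The sample channel had 5 without knockout array 3 or wild-type array 3, and 6 of the 35 were called without wild-type array 4. The scanner's own log ratio and the series table gave 20 calls each in the other lists. Replicate numbers did not pair the arrays: deviations of same-numbered arrays correlated at 0.036, 0.240 and 0.021, and 1 of 3 knockout arrays correlated best with its own number. With replicate number as a block, 1081 genes were called, 6 of the 35 (5 higher, 1 lower), 2 in the sample channel and 20 in the other lists. The sign turned only for genes near 0 that were not called. Dram1 turned to -0.0061 with array weights, -0.033 with feature flags alone, -0.030 with median centring, -0.073 in the sample channel, -0.039 with slide as a block and -0.042 with the series table and the scanner's ratio. Gadd45b turned to 0.015 with array weights, 0.038 with median centring, 0.053 in the sample channel, 0.0014 with slide as a block and 0.14 without knockout 3 and wild type 4, where Btg2 stood at -0.027 and Gadd45a at -0.073. Mdm2 was -0.043 with the replicate block, Mdm4 -0.020 with array weights and Polk -0.051 in the sample channel, and Rrm2b was 0.092 as a mean over probes and 0.0069 in the sample channel. With 1 array left out, Btg2 ran from -0.11 to 0.23, Dram1 from -0.078 to 0.078, Ercc5 from -0.041 to 0.24, Gadd45a from -0.062 to 0.19, Gadd45b from -0.16 to 0.12, Mdm2 from -0.048 to 0.27, Mdm4 from -0.086 to 0.29 and Polk from -0.068 to 0.23. The cause of these shifts was not tested. The number of arrays limits all counts, and dim genes such as Perp also by their signal over background.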
